A study of Mus musculus with 6 samples.

Results

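The genes of 10 immediate-early transcription factors of the AP-1 and EGR families were followed in osteoblasts kept with verapamil, a drug that blocks calcium entry through L-type channels. They were Fos, Fosb, Fosl1 and Fosl2 of the FOS subfamily, Jun, Junb and Jund of the JUN subfamily, and Egr1, Egr2 and Egr3 of the EGR family. They were chosen by gene symbol, with earlier results of these data known, and all 10 were found among the 17491 genes of the count table. Mesenchymal stem cells from the marrow of mouse tibia and femur, given as wildtype, had been differentiated with dexamethasone, β-glycerophosphate and ascorbic acid, and RNA was sequenced at day 7. The groups were 3 libraries of verapamil-treated osteoblasts and 3 libraries of control osteoblasts in the same osteogenic medium. Strain, age, drug dose and time of exposure are not stated, nor is the interval between the last medium change and harvest. Since no label says that replicates were separate cultures or animals, p-values cover the spread between these libraries alone, which may be technical. The design text speaks of 3 pairs without saying what a pair shares, and the main test does not use pairs.

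Immediate-early genes are transcribed within minutes of a stimulus, without new protein synthesis, and their short-lived mRNAs decay soon after. Calcium entry is a classic stimulus: it acts through calmodulin-dependent kinases on CREB, which binds cyclic AMP response elements (CREs), and through the MAP kinase cascade on serum response factor and its partners, which bind CArG boxes. FOS proteins cannot pair with themselves and bind DNA as partners of JUN proteins in the dimer called AP-1, while EGR proteins bind GC-rich sites through zinc fingers and are restrained by the co-repressors NAB1 and NAB2. In mouse bone, Fosl1 and a short splice form of Fosb raise bone mass when overexpressed, and Fos is needed for osteoclast formation. Counts per gene do not separate the splice forms of Fosb.

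Promoter sequences are shown for the member that was higher with verapamil, Fos, and for 3 of the lower members whose promoters held searched motifs. RefSeq promoter windows in GRCm38.p6 ran from 250 bases before to 50 after a start site. They were searched for 7 of the 10 genes, with 11 windows in all. Fosl1 and Egr3 were not matched, and Egr1 was left out of the search. Capitals mark the CRE core TGACG on either strand (CGTCA when read on the other strand), the EGR site GCGNGGGCG, the CArG box and the TATA box TATAAA. The Fos window lies at chr12:85473640-85473939 on the plus strand, that of Fosb at chr7:19309996-19310295 on the minus strand, that of Fosl2 at chr5:32136222-32136521 on the plus strand, and that of the third Egr2 start at chr10:67537619-67537918 on the plus strand.
Fos: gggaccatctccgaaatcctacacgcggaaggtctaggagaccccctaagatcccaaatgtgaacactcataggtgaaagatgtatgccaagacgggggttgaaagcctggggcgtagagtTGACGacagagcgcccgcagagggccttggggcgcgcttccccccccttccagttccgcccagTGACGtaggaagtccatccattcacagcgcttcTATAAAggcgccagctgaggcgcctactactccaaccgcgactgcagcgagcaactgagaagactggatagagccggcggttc
Fosb: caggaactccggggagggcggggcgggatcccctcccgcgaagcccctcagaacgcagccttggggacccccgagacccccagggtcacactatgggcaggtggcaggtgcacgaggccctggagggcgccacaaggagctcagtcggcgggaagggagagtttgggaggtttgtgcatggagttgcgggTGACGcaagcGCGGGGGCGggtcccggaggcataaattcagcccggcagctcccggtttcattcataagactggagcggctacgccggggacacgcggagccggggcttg
Fosl2: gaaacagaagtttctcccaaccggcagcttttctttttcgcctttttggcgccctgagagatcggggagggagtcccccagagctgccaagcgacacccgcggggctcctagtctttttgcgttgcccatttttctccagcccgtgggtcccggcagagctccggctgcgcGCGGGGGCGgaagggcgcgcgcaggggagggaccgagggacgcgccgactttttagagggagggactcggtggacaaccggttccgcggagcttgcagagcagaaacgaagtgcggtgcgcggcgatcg
Egr2: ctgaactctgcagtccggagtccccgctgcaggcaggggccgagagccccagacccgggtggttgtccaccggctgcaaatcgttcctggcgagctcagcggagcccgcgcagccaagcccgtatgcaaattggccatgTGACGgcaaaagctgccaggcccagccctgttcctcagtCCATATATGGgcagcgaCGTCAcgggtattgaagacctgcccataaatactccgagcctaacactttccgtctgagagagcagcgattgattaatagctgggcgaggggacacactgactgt

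Sites more than 250 bases upstream were not searched in any gene, so a motif missing from a window may lie further out. Fos had CRE cores beginning 129 and 66 bases upstream of its start and a TATA box 33 bases upstream. Fosb had a CRE core 60 bases upstream and an EGR site 50 bases upstream, and Fosl2 had an EGR site 79 bases upstream. The window of the third Egr2 start held a CArG box 72 bases upstream between CRE cores 111 and 55 bases upstream. Of the 5 Egr2 windows, that of the first start held no searched motif and that of the second a CArG box alone, while those of the fourth and the fifth start overlap the third and hold the same sites. The windows of Jun and Jund held no searched motif. That of Junb held a CRE core 106 bases upstream and TATAAA beginning at its start site. Over 32851 windows of the same length, with sites counted on either strand, 20.8% held the CRE core and 5.55% the EGR site. A CArG box was in 1.63% of them and TATAAA in 13.6%. The whole CRE TGACGTCA, present in 1.79% of all windows, and the AP-1 site TGANTCA, present in 7.81%, were in none of the 11 windows of these genes. Both letter strings read the same on either strand, and the CRE core is contained in the whole CRE.

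The genes have few exons. In the longest coding transcript of GENCODE M21, Jun, Junb and Jund had 1 exon, the EGR genes 2 exons and the FOS genes 4 exons, against a median of 9 exons over 12940 tested genes with a transcript. Single-exon genes made up 2.16% of those, and genes with 4 exons or fewer 21.3%. Their transcripts were not uniformly short: that of Fosl2 was 6537 bases long and that of Jund 1668 bases, with a median of 3196 bases over tested genes. AU-rich letters of the kind that mark unstable mRNAs were counted as ATTTA pentamers per kb of 3′ UTR, with a median of 1.33 per kb over tested genes. Fos held 4.91 per kb, Junb 4.12, Jun 3.24, Egr3 2.65 and Egr2 2.5 per kb. Jund (1.88), Fosl2 (1.72), Egr1 (1.64) and Fosl1 (1.57 per kb) were nearer the median, and Fosb held 0.466 per kb. Of the genes with 2.5 per kb or more, Fos rose with verapamil, Junb, Egr3 and Egr2 fell, and Jun did not pass the test given below. Decay of these mRNAs was not measured, and its part in the changes was not tested. Fos and Fosl2 held the nonamer TTATTTATT, as did 8.07% of tested genes. The Fos stretch, at bases 647 to 676 of its 3′ UTR on chromosome 12, reads as follows with the nonamer in capitals.
Fos AU-rich stretch: ttttcaatTTATTTATTaagatggattctc

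With verapamil, most of these factors had less mRNA, and Fos had more. Of the 10 genes, 7 fell (Fosb, Fosl1, Fosl2, Junb, Egr1, Egr2 and Egr3), Fos rose, and Jun and Jund did not pass the test, which was edgeR's quasi-likelihood test over 13366 genes at an adjusted p under 0.05. Among all tested genes, 16.3% fell and 15.4% rose, 31.7% in all. The median log2 fold change of verapamil over control was -0.64 for the 10 genes and 0.01 for all tested genes. The 3 verapamil libraries lay wholly below the 3 control libraries in 8 of the 10 genes and wholly above them in 1, where 24.4% of tested genes lay wholly below and 25.2% wholly above. Levels below are TMM-scaled read counts (CPM), with n = 3 libraries per group, and adjusted p values come from that edgeR test with Benjamini-Hochberg adjustment. With 1 library left out, 7.61%, 7.49% and 9.13% of all tested genes rose without verapamil replicates 1, 2 and 3, and 9.01%, 17.0% and 18.2% without control replicates 1, 2 and 3. In the same order, 9.05%, 9.09% and 10.3%, then 10.8%, 18.8% and 19.2% of them fell. At an adjusted p under 0.01, 6.75% rose and 7.98% fell, with the replicate number as a block 10.2% rose and 11.9% fell, and DESeq2 called 13.6% higher. These are bulk libraries, so fewer cells of a type and less RNA per cell cannot be told apart.

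**Figure D1:**
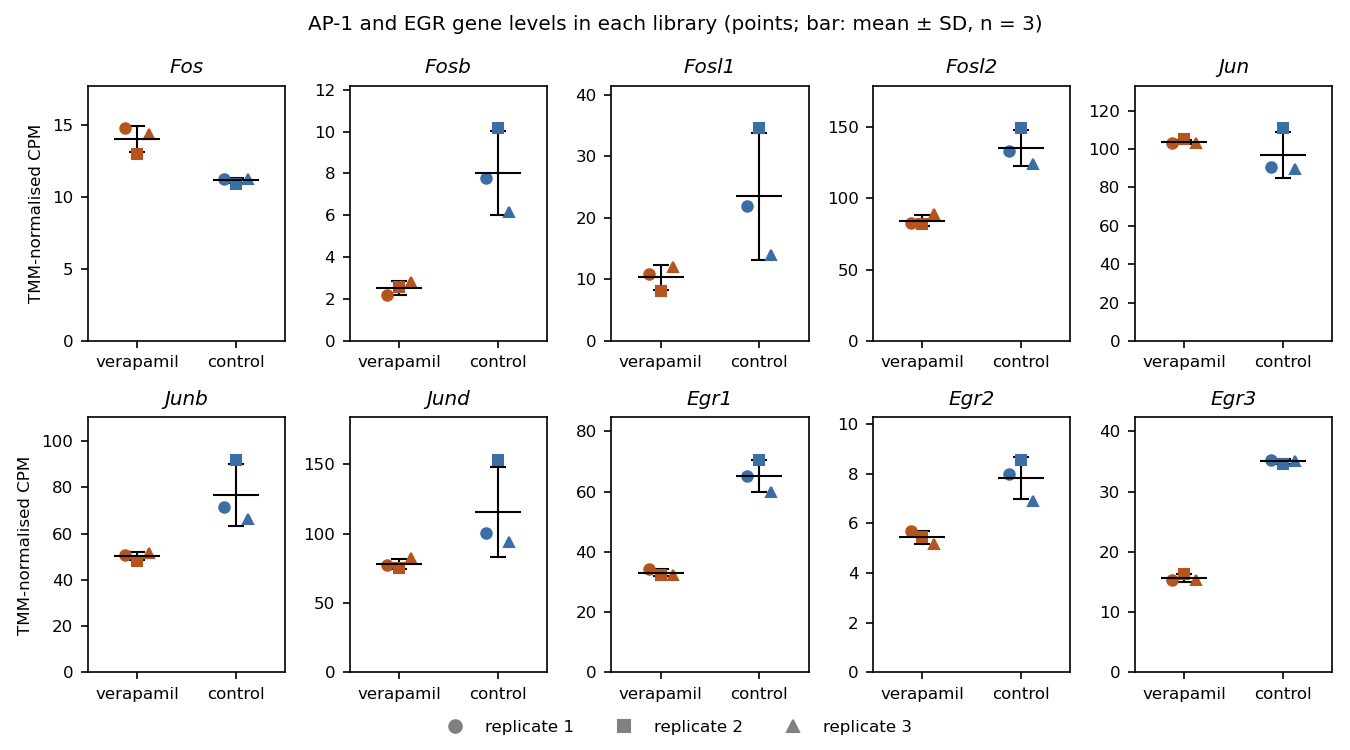
TMM-normalised CPM of each gene (y axis, from 0) in the verapamil and control libraries, with replicates as symbols and bars for the mean ± SD. Fos is higher in every verapamil library than in every control library, Jun overlaps, and the other 8 genes are lower.

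Among the FOS genes, Fosb fell most. This factor is best known for building up in long-stimulated neurons and for the bone gain that its short form causes in mice. Fosb was at 2.18, 2.57 and 2.83 CPM in verapamil replicates 1, 2 and 3, against 7.80, 10.1 and 6.16 CPM in control replicates 1, 2 and 3. Every verapamil library was below every control library, and the controls were the more spread. The log2 fold change was -1.65 ± 0.21 (SE, adjusted p = 9.93e-04), which left 31.8% of the control level. The verapamil values rest on estimated counts of 41.0, 56.9 and 63.0 reads.

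Fosl1 encodes FRA-1, a FOS protein without the strong activation domain of FOS that promotes matrix production in mouse bone. Fosl1 stood at 10.8, 8.12 and 12.04 CPM in verapamil replicates 1, 2 and 3, against 21.9, 34.5 and 13.96 CPM in control replicates 1, 2 and 3. The highest verapamil library and the lowest control library were close, and the controls spanned a wide range. The change was -1.18 ± 0.34 (SE, adjusted p = 0.0399). It did not pass without any 1 of verapamil replicates 1, 2 and 3 or control replicates 1 and 2 (adjusted p = 0.0594 to 0.118), nor by limma-voom (adjusted p = 0.0715) or without the low-count filter (adjusted p = 0.0924). In edgeR with the replicate number as a block it did not pass either (adjusted p = 0.0707).

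Fosl2 encodes FRA-2, which in mice acts in osteoblasts to promote collagen and osteocalcin expression. It was at 82.5, 81.7 and 89.1 CPM in verapamil replicates 1, 2 and 3, against 133, 149 and 124 CPM in control replicates 1, 2 and 3. The groups were well apart, and the change was -0.68 ± 0.08 (SE, adjusted p = 6.71e-04).

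Fos, the founding member, went the other way. It measured 14.7, 13.0 and 14.3 CPM in verapamil replicates 1, 2 and 3, against 11.2, 10.9 and 11.3 CPM in control replicates 1, 2 and 3. The groups did not overlap, but the gap between the nearest libraries was small. Fos rose by 0.33 ± 0.09 on the log2 scale (SE, adjusted p = 0.0209), to 126% of the control level. The rise did not pass without verapamil replicate 1, verapamil replicate 3 or control replicate 1 (adjusted p = 0.0594 to 0.0912). Nor did it pass in edgeR with the replicate number as a block (adjusted p = 0.0581). Macrophage markers were higher in the same libraries: 15 of 19 rose and 4 did not pass, where 15.4% of all tested genes rose. Their median log2 fold change was 0.62, and they summed to 19440 to 21858 CPM in verapamil libraries and 10723 to 13329 CPM in control libraries. None was at 0 in any library, and their part in the level of Fos was not tested.

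**Figure D2:**
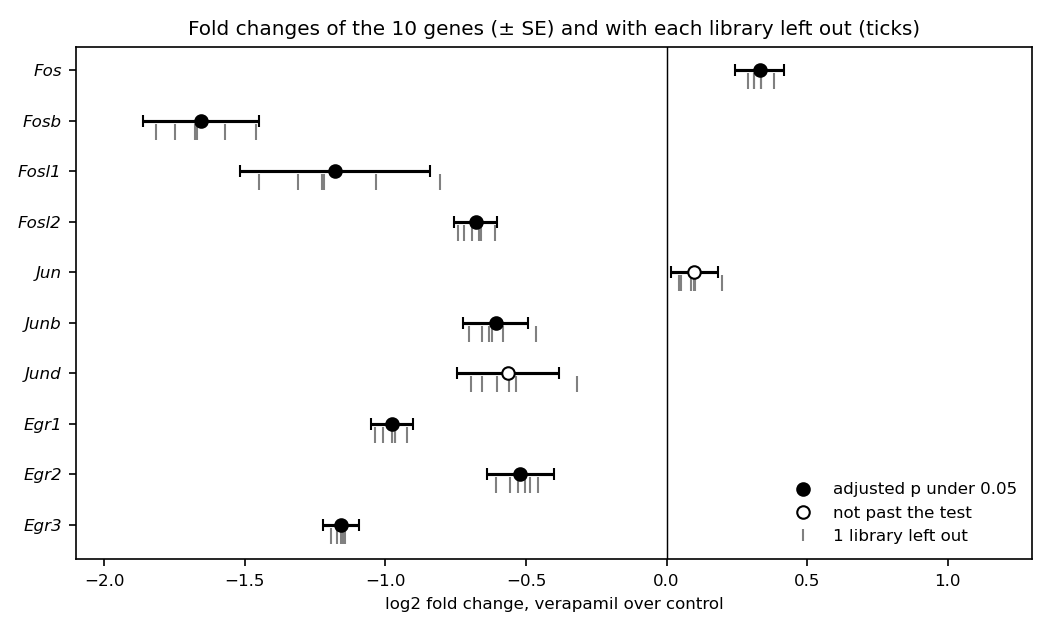
Log2 fold change of verapamil over control (x axis) for each gene, with bars for ± 1 SE, filled circles past the test and open circles not past it; grey ticks are the fold changes with 1 library left out. Fosb lies at -1.65 and Fos at 0.33, and no tick crosses 0 for any gene.

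JUN proteins are the partners that FOS proteins need, and they can also pair with each other. Junb, often a brake on JUN-driven proliferation, was at 50.9, 48.2 and 51.6 CPM in verapamil replicates 1, 2 and 3, against 71.7, 91.8 and 66.4 CPM in control replicates 1, 2 and 3. All verapamil libraries were lower, by -0.61 ± 0.11 on the log2 scale (SE, adjusted p = 0.00638). Junb overlaps Prdx2 on the opposite strand in GENCODE M21. How the counting treated strand is not given in the sources used, and reads of such neighbours cannot be told apart.

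Jund, whose mRNA is present in most resting cells, was at 77.7, 74.9 and 82.3 CPM in verapamil replicates 1, 2 and 3, against 100.2, 153 and 94.2 CPM in control replicates 1, 2 and 3. The groups did not overlap, with control replicate 2 far above the other controls. The difference was -0.56 ± 0.18 (SE, adjusted p = 0.0555). Without control replicate 2 it was smaller but past the test, at -0.32 (adjusted p = 0.00190), and without control replicate 3 it was at -0.69 (adjusted p = 0.0216). DESeq2 gave Jund an adjusted p of 0.00355. Under 11 of the 16 alternative settings Jund stayed short of the test. Among these were leaving out any 1 of verapamil replicates 1, 2 and 3 or control replicate 1 (adjusted p = 0.0611 to 0.144 in edgeR).

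Jun, the member with the strongest activation domain, was at 103.2, 105 and 103.2 CPM in verapamil replicates 1, 2 and 3, against 90.5, 111 and 89.8 CPM in control replicates 1, 2 and 3. The verapamil libraries fell between the control libraries. The difference was 0.10 ± 0.08 (SE, adjusted p = 0.401). Without control replicate 2 it was at 0.20 and past the test (adjusted p = 0.00799). Without any other single library it did not pass (adjusted p = 0.519 to 0.732), and it stayed short of the test under 15 of the 16 alternative settings. Jun and Jund each overlap an antisense gene in GENCODE M21 (Junos and Gm11175), and Fosl1 overlaps Ccdc85b on the opposite strand, so the same limit on strand applies to them.

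The EGR genes fell together. Egr3 was at 15.3, 16.4 and 15.3 CPM in verapamil replicates 1, 2 and 3, against 35.2, 34.6 and 35.1 CPM in control replicates 1, 2 and 3. Both groups were tight and far apart. At -1.16 ± 0.06 on the log2 scale (SE, adjusted p = 7.08e-05), Egr3 had the smallest p of the 10 genes. Egr3 lies on chromosome 14 (Entrez 13655, 70077317 to 70082613 in GRCm38.p6).

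Egr1, the most widely induced EGR factor and a target of growth factor and mechanical signals, was at 34.3, 32.4 and 32.4 CPM in verapamil replicates 1, 2 and 3. In control replicates 1, 2 and 3 it was at 65.1, 70.5 and 59.8 CPM. The groups did not overlap, and the level with verapamil was 50.8% of the control level, which is -0.98 ± 0.07 on the log2 scale (SE, adjusted p = 1.54e-04). Egr2, known for its role in Schwann cell myelination, was much less abundant, at 5.69, 5.46 and 5.17 CPM in verapamil replicates 1, 2 and 3, against 7.98, 8.55 and 6.89 CPM in control replicates 1, 2 and 3. It fell by 0.52 ± 0.12 on the log2 scale (SE, adjusted p = 0.0129). That call was lost without verapamil replicates 2 or 3 or control replicate 1 (adjusted p = 0.0508 to 0.0548). The relative Egr4 was at 0.126 CPM in verapamil libraries and 0.144 CPM in control libraries on average and was too low to test.

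**Figure D3:**
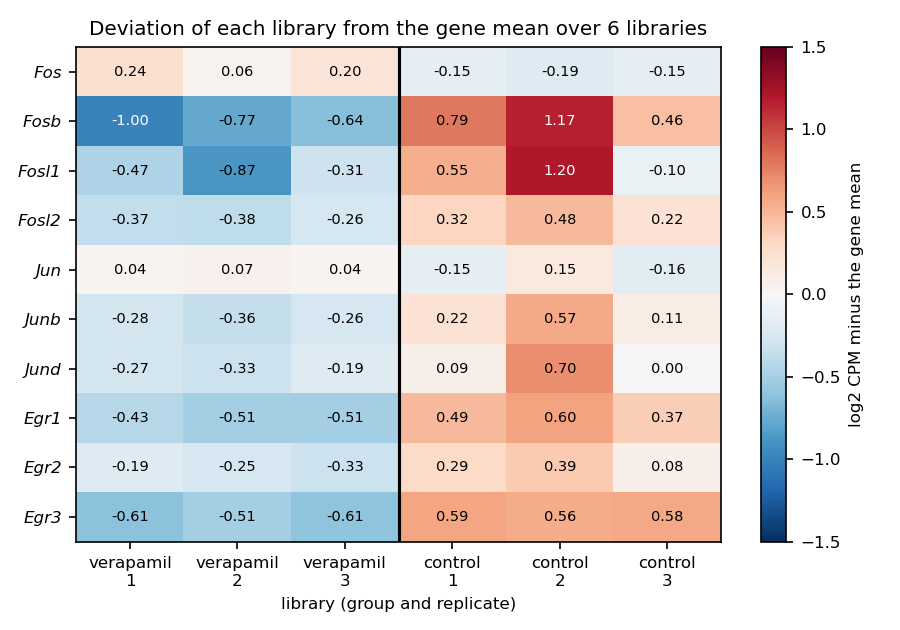
Log2 CPM of each gene in each library minus the gene's mean over the 6 libraries (colour and printed value), with verapamil libraries left of the line and control libraries right of it. Control replicate 2 holds the highest value of the controls for every gene but Fos and Egr3.

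Spread within the groups was unequal. Control libraries varied more than verapamil libraries in 8 of the 10 genes, the exceptions being Fos and Egr3, and in 73.7% of all tested genes. Control replicate 2 was the highest control in 8 of the 10 genes, against 40.1% of all tested genes. Among the 7 genes that fell it was highest in 6, against 60.8% of all genes that fell. Genes induced by low oxygen moved with these control differences: they summed to 1456 to 1696 CPM in verapamil libraries, and to 3587, 5479 and 2175 CPM in control replicates 1, 2 and 3. Fosb, Fosl1, Fosl2, Jun, Junb, Jund, Egr1 and Egr2 had the same order among the controls, with replicate 2 highest and replicate 3 lowest, and the part of the low-oxygen response in their levels was not tested. In Fosb, Fosl2, Junb, Egr1 and Egr3 the fall passed the test without each of the 6 libraries in turn.

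Levels were compared between genes as CPM per kb of the longest coding transcript. The order of genes and the subfamily shares rest on these lengths, and other transcripts were not tried. For Jund the transcript was 1668 bases long, while RefSeq places the gene at 70697739 to 70700616 on chromosome 8, a longer stretch. A longer transcript would lower its level per kb. In verapamil libraries the order was Jund (46.95 ± 2.23), Jun (32.6 ± 0.339), Junb (27.8 ± 1.00), Fosl2 (12.9 ± 0.619), Egr1 (7.38 ± 0.246), Fos (6.65 ± 0.431), Fosl1 (5.53 ± 1.07), Egr3 (3.98 ± 0.155), Egr2 (1.83 ± 0.0884) and Fosb (0.668 ± 0.0866 CPM per kb, SD, n = 3). In control libraries it was Jund (69.4 ± 19.4), Junb (42.4 ± 7.41), Jun (30.4 ± 3.74), Fosl2 (20.7 ± 1.95), Egr1 (14.5 ± 1.19), Fosl1 (12.6 ± 5.56), Egr3 (8.88 ± 0.0918), Fos (5.28 ± 0.0941), Egr2 (2.63 ± 0.284) and Fosb (2.12 ± 0.531 CPM per kb, SD, n = 3). Neighbours whose libraries overlapped were Fos and Fosl1 with verapamil, and Egr1 and Fosl1, Fosl1 and Egr3, and Egr2 and Fosb in controls. Thus Jun stood above Junb with verapamil and below it in controls, and Fos stood above Egr3 with verapamil and below it in controls, in each case without overlap of libraries.

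The makeup of the FOS subfamily per transcript length differed accordingly. Fos made up 26.9%, 26.0% and 24.6% of the summed CPM per kb in verapamil replicates 1, 2 and 3, against 13.5%, 10.5% and 15.98% in control replicates 1, 2 and 3. Fosb made up 2.22%, 2.87% and 2.71% in verapamil replicates 1, 2 and 3, against 5.22%, 5.46% and 4.87% in control replicates 1, 2 and 3. Fosl2 was the largest part in every library, at 48.6% to 52.7% with verapamil and 46.4% to 56.7% in controls, and its ranges overlapped. The summed FOS level was 23.7 to 27.6 CPM per kb in verapamil libraries and 33.4 to 49.2 CPM per kb in control libraries.

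The JUN subfamily summed to 104.5 to 110.2 CPM per kb in verapamil libraries and 121 to 177 CPM per kb in control libraries. Jun took 29.4% to 31.5% of it with verapamil and 19.6% to 23.2% in controls, without overlap. The EGR genes summed to 12.9 to 13.5 CPM per kb in verapamil libraries and 24.6 to 27.4 CPM per kb in control libraries. Egr1 was the largest EGR part in both groups, at 54.7% to 56.9% with verapamil and 54.2% to 57.4% in controls, while Egr2 took 13.5% to 14.2% with verapamil and 9.46% to 10.5% in controls.

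**Figure D4:**
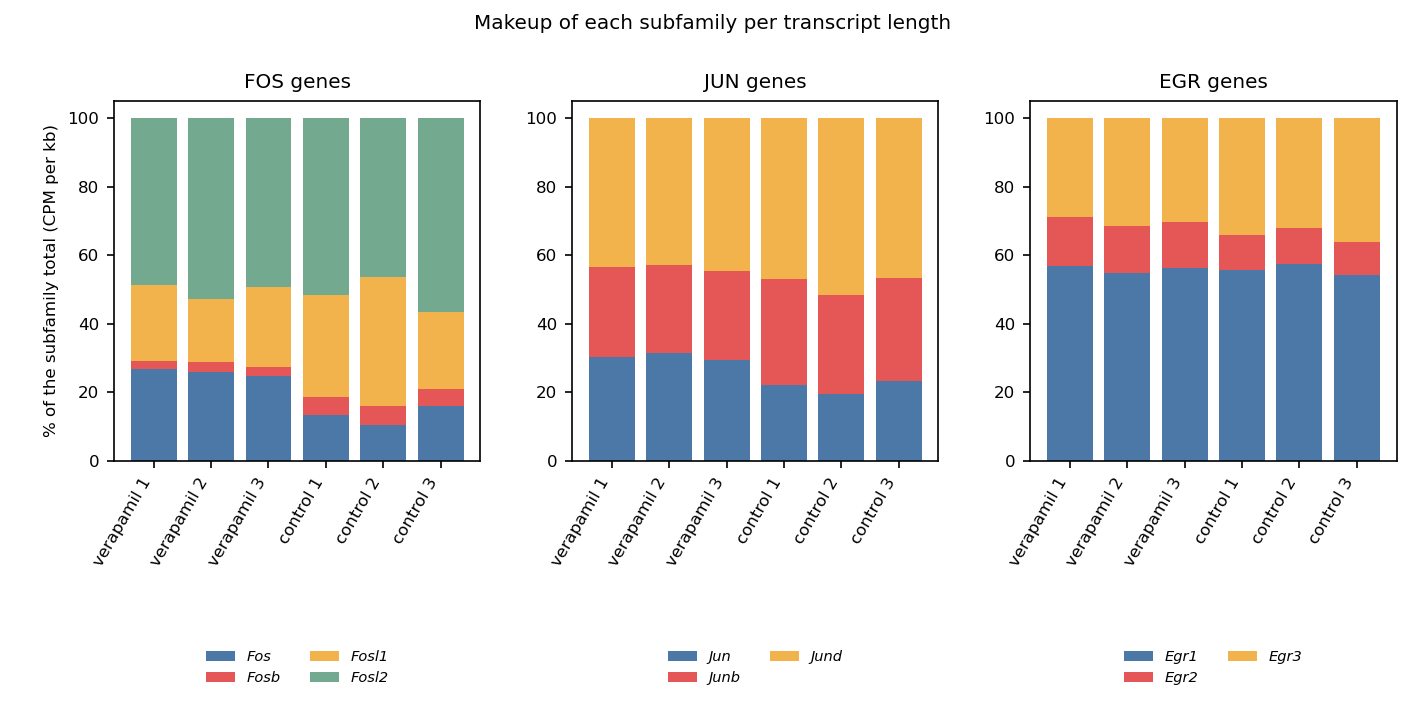
Share of each gene in its subfamily's summed CPM per kb (y axis, %), 1 stacked bar per library with verapamil left of control. The Fos share is 24.6% to 26.9% with verapamil and 10.5% to 15.98% in controls, and the Egr1 share, at 54.7% to 56.9% with verapamil and 54.2% to 57.4% in controls, overlaps.

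Genes with the most similar pattern were taken by the root mean square difference of mean-centred log2 CPM over the 6 libraries, among 10796 genes averaging 5 CPM or more. Egr3 was closest to Kcnk2, a potassium channel (difference 0.0653), and to Sp7, the osteoblast transcription factor (0.0739). Egr1 was closest to Atp2b4, a plasma membrane calcium pump (0.0517), and to the Wnt receptor Fzd1 (0.0523). Fosb was closest to Gprc5c (0.0976) and to the matrix protein gene Tnn (0.105), and Fos to 1110038F14Rik (0.0351) and the mitochondrial ribosomal gene Mrpl42 (0.0369). Within the 10 genes, Egr1 and Egr3 were each other's nearest (0.129), as were Fosl2 and Junb (0.0816).

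Other immediate-early genes mostly fell too. Of 35 on the list, 34 were tested, of which 19 fell, 2 rose and 13 did not pass, with a median log2 fold change of -0.52. Among all tested genes, 16.3% fell and 15.4% rose. The list was chosen with earlier results of these data known. The number that fell was 12 without verapamil replicate 1 or 2, where 9.05% and 9.09% of all tested genes fell. Without control replicate 2, 4 rose, where 17.0% of all tested genes rose. Ccn2, a matricellular growth factor, was at 460, 397 and 449 CPM in verapamil replicates 1, 2 and 3, against 1059, 1486 and 695 CPM in control replicates 1, 2 and 3. It fell by 1.31 ± 0.26 on the log2 scale (SE, adjusted p = 0.0107). Myc, the growth regulator, fell by 1.07 ± 0.14 (SE), Phlda1 fell by 0.82 ± 0.17 (SE) and the flow-responsive factor Klf2 fell by 0.81 ± 0.16 (SE). Ptgs2, the inducible prostaglandin synthase, fell by 1.47 ± 0.41 (SE, adjusted p = 0.0381), but not without any 1 of verapamil replicates 1, 2 and 3 or control replicates 1 and 2 (adjusted p = 0.0873 to 0.142).

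Genes with a strong link to calcium and depolarisation in neurons were chosen from this list after their values were seen. Npas4 was at 2.13, 3.02 and 2.70 CPM in verapamil replicates 1, 2 and 3, against 6.15, 5.77 and 5.79 CPM in control replicates 1, 2 and 3. Npas4 fell by 1.17 ± 0.15 on the log2 scale (SE, adjusted p = 0.00120). The nuclear receptor Nr4a1 fell by 0.63 ± 0.08 (SE), with 38.1 ± 1.84 CPM in verapamil libraries and 59.2 ± 5.24 CPM in control libraries (SD). The genes of the list that rose, likewise named after their values were seen, were Dusp1 and Plk2. Dusp1, a phosphatase that switches off MAP kinases, was at 52.1 ± 2.08 CPM with verapamil and 37.7 ± 3.37 CPM in controls, a rise of 0.47 ± 0.08 on the log2 scale (SE, adjusted p = 0.00316). Plk2, a kinase, rose by 0.38 ± 0.06 (SE).

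**Figure D5:**
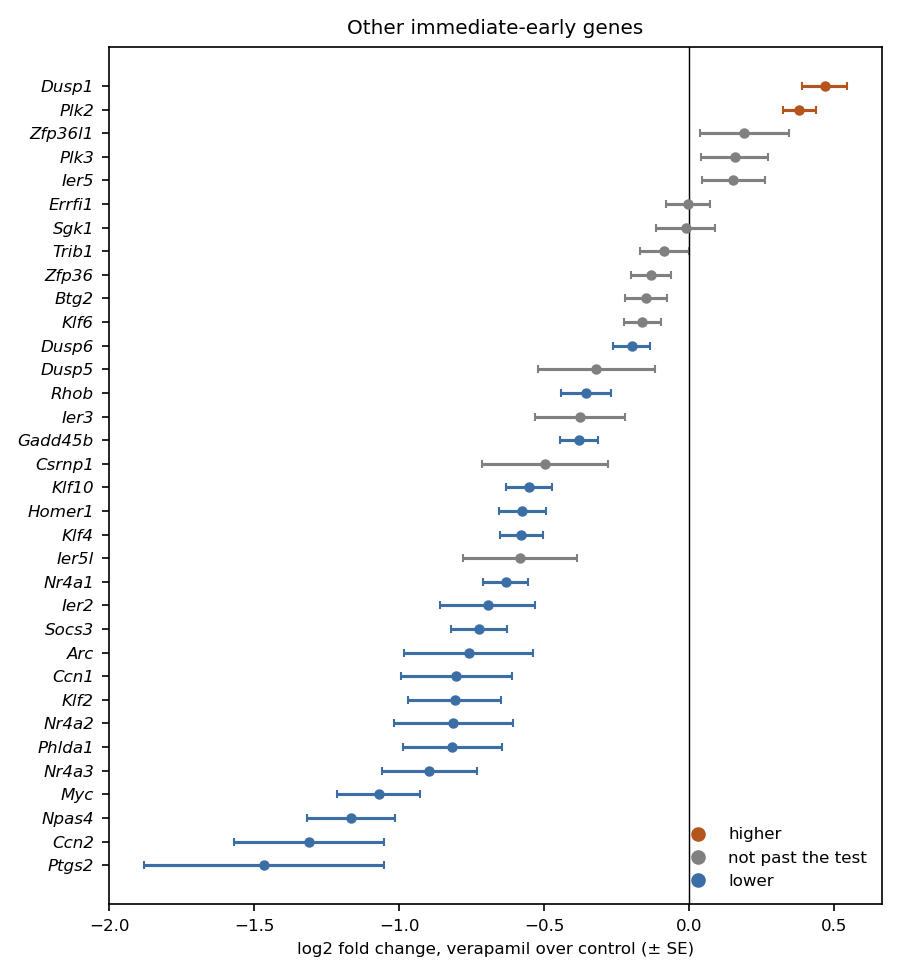
Log2 fold change of verapamil over control (x axis, bars ± 1 SE) for the 34 tested genes of the list of other immediate-early genes, coloured by whether they were higher, not past the test or lower. Dusp1 and Plk2 are the 2 higher genes and 19 are lower.

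Among partners and restrainers of these factors, the shares that changed were near those of all tested genes. Of 19 on the list, 17 were tested, of which 4 rose, 3 fell and 10 did not pass, with a median of -0.08, where 15.4% of all tested genes rose and 16.3% fell. Maff, a small MAF protein, fell by 1.36 ± 0.24 (SE), at 11.6 ± 1.41 CPM in verapamil libraries and 29.9 ± 9.77 CPM in control libraries (SD). Nab2, the co-repressor that EGR factors themselves induce, was at 38.2, 38.6 and 42.1 CPM in verapamil replicates 1, 2 and 3, against 64.0, 74.7 and 52.0 CPM in control replicates 1, 2 and 3. It fell by 0.68 ± 0.12 (SE, adjusted p = 0.00569), while its relative Nab1, named after its value was seen, was at -0.08 ± 0.05 (SE, adjusted p = 0.297). Nfil3, a bZIP repressor, fell by 0.49 ± 0.09 (SE). Atf3, a stress-induced partner of JUN proteins, rose by 0.48 ± 0.10 (SE). Batf (0.75) and Jdp2 (0.32), named after their values were seen, also rose. They encode bZIP proteins that pair with JUN and are best known from immune cells and osteoclasts. The macrophage markers given above, 15 of 19 higher, were measured in the same libraries, and their part in these rises was not tested. Without control replicate 2 or 3, 5 of these genes fell.

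Of 30 upstream regulators of FOS and EGR transcription, activating or repressing and all tested, 7 fell, 2 rose and 21 did not pass, with a median of -0.09. Among all tested genes 31.7% changed in either direction, a share near that of the regulators. Srf, which encodes serum response factor, was at 59.7, 56.5 and 61.0 CPM in verapamil replicates 1, 2 and 3, against 85.3, 112 and 81.6 CPM in control replicates 1, 2 and 3. It fell by 0.65 ± 0.12 (SE, adjusted p = 0.00511). Its partner Elk3 fell by 0.35 ± 0.08 (SE) and Camk2g, a calmodulin-dependent kinase, fell by 0.42 ± 0.08 (SE). Mapk8, which encodes the JUN kinase JNK1, fell by 0.29 ± 0.07 (SE), but not without verapamil replicate 2 or 3 (adjusted p = 0.0627 and 0.0647) or with scaling by library totals alone. Rps6ka1, a kinase below ERK, rose by 0.51 ± 0.08 (SE). Among those not past the test, and named after their values were seen, Creb1 was at -0.18 ± 0.08 (SE, adjusted p = 0.102), and Mapk3, which encodes an ERK kinase, was at 0.11 (adjusted p = 0.231). Leaving out verapamil replicate 1, 2 or 3 gave 4, 3 and 4 that fell, leaving out control replicate 1 gave 4, and in each of these cases 1 rose.

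Genes known as targets of AP-1 or EGR factors in fibroblasts or bone cells were mostly lower. Of 22 on the list, 20 were tested, of which 15 fell, 1 rose and 4 did not pass, with a median of -0.76. Among all tested genes, 16.3% fell and 15.4% rose. The list was chosen with earlier results of these data known, and whether the 10 genes acted on these targets was not tested. The list shares Spp1, Ibsp and Bglap with the osteoblast markers, of which 12 of 14 fell in the same libraries, and Mmp9 with the osteoclast markers. Of these shared genes, Ibsp and Bglap are among the 15 that fell, and the part of the osteoblast markers in this count was not tested. Hbegf, a growth factor shed from the cell surface, was at 8.61, 6.18 and 8.22 CPM in verapamil replicates 1, 2 and 3, against 27.8, 42.0 and 19.8 CPM in control replicates 1, 2 and 3. It fell by 1.96 ± 0.30 (SE, adjusted p = 0.00441). The protease inhibitor gene Timp1 fell by 1.29, the osteocalcin gene Bglap fell by 1.16 and the cytokine Lif fell by 1.14. Bglap has near-identical neighbours, so the sharing of its reads is uncertain. The 1 gene that rose, named after its value was seen, was Hmox1, a haem-degrading enzyme, by 0.62 ± 0.07 (SE). The collagenase gene Mmp13, a textbook AP-1 target of osteoblasts, was at 2463 ± 29.0 CPM with verapamil and 3110 ± 373 CPM in controls (SD). Chosen after its value was seen, it fell by 0.34 ± 0.10 on the log2 scale (SE, adjusted p = 0.0383).

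The libraries held 18.2 M to 21.7 M estimated counts and 15679 to 15891 detected genes each. For the marker lists that follow, 16.3% of all tested genes fell and 15.4% rose. Osteoblast markers were present in both groups and lower with verapamil: 12 of 14 fell and 2 did not pass, with a median of -1.03. They summed to 27413 to 27538 CPM in verapamil libraries and 45174 to 57473 CPM in control libraries. Dmp1, of late osteoblasts, and Col1a1 fell by 4.43 and 1.66, and among macrophage markers Marco and Cd5l rose by 3.10 and 1.72. Of 12 genes induced by low oxygen, 9 fell and 3 did not pass (5, 3 and 4 fell without verapamil replicates 1, 2 and 3), with Egln3 at -3.54 and Bnip3 at -2.05. Of 9 osteoclast markers 5 were tested, as Calcr, Ocstamp, Dcstamp and Oscar were too low. Of these 5, 3 fell, including Itgb3 (-0.80) and Nfatc1 (-0.32). Only 1 fell when control replicate 1 or a single verapamil replicate was left out. Endothelial markers had 3 of 7 lower, among them Pecam1 (-0.58) and Cdh5 (-0.39). Of 4 tested adipocyte markers, Plin4 (-0.48) and 1 other fell and Fabp4 (0.59) rose, and only 1 fell without any 1 of verapamil replicates 1, 2 and 3 or control replicates 1 and 3. Of 10 neutrophil markers, 5 were in the count table and 2 had enough reads to test. Both tested neutrophil markers rose, Csf3r by 0.59, but 1 did when a single verapamil replicate, control replicate 2 or control replicate 3 was left out. The other tested marker, S100a8, rests on 6 to 21 estimated reads per library. Lymphocyte markers were too low to test, at 0.135 to 0.316 CPM summed in verapamil libraries and at most 0.188 CPM in control libraries.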

How the data were processed

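The 3 verapamil and 3 control RNA-seq libraries were compared. The authors deposited 1 table of estimated counts per gene and library (a read count, per the file headers, not scaled to depth or length), in which 67.7% of values were not whole. The submitters' processing notes name GRCm38, also called mm10, and no aligner, counter, annotation or strand setting is given in the sources used. Counts were rounded, filtered with filterByExpr (minimum count 10, minimum total 15), which left 13366 of 17491 genes, scaled with TMM and tested with edgeR 4.0.16 in R 4.3.3 by the robust quasi-likelihood fit, with Benjamini-Hochberg adjustment over all tested genes. Each SE was derived as |log2 fold change| divided by the root of its F statistic. Log2 CPM used a prior count of 2.

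The members and gene lists were chosen with earlier results of these data known. From the lists, up to 5 genes past the test with the largest change and a mean of at least 5 CPM were named (2 for marker and low-oxygen lists). Some genes that this rule names are not reported here. Lists covered other immediate-early genes, partners and co-repressors, upstream regulators, known targets, low-oxygen genes and markers of macrophages, osteoblasts, osteoclasts, neutrophils, endothelial cells, lymphocytes and adipocytes. Gene positions and promoters came from RefSeq (GRCm38.p6), and exons, transcript lengths and 3′ UTRs from GENCODE M21. Alternatives were DESeq2 1.42.0, limma-voom (limma 3.58.1), other scalings, filters and thresholds, the replicate number as a block, each library left out and, added after the data were seen, counts without rounding.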

Additional observations from a re-analysis of the deposited data

How the results depend on the processing

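The 10 genes kept the sign of their fold change under all 16 alternatives, and over these alternatives 136 of their values kept the side of the threshold, 18 lost a call and 6 gained one. The stricter threshold reuses the main fit, so its signs are the same by construction and it cannot add a call. At an adjusted p under 0.01, 1969 genes were called in place of 4235, and leaving out 1 library gave 2236 to 5042. The number of the 10 genes called higher by edgeR was 0 at an adjusted p under 0.01 and 0 with the replicate number as a block. In both of these fits 1 gene was higher at an unadjusted p under 0.05. With 1 library left out the number called higher was 0 to 2. DESeq2, without a block and at an adjusted p under 0.05, called 1 higher, with Fos at adjusted p = 0.0442. The number called lower was 5 to 8 with 1 library left out, against 7. The design text speaks of 3 pairs without saying what a pair shares. Correlations of deviations between same-numbered libraries were 0.00892, -0.167 and -0.127. With 3 libraries per group these values cannot decide whether the numbers are pairs, and the main fit does not use them. With the replicate number as a block in edgeR, 6 of the 10 genes were lower and 2953 genes were called. In that fit Fos was at adjusted p = 0.0581, Fosl1 at 0.0707 and Mapk8 at 0.0555. Of the 30 upstream regulators, 3 were lower and 1 higher with the block, against 7 and 2. Of the changed genes, 48.5% were higher, and 63.7% with libraries scaled by their totals alone. Fosb rests on the fewest reads of the 10 genes.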
